A study of Mus musculus with 28 samples.

Results

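The Igf2-H19 and Kcnq1 imprinted clusters lie next to each other on mouse chromosome 7, and 8 of their genes are described here: Igf2, H19, Ascl2, Cdkn1c, Phlda2, Slc22a18, Kcnq1 and Kcnq1ot1. They were taken by name from the gene count table of 37991 gene rows, and 7 of the 8 had a row. All 7 reached at least 16 reads over 16 RNA libraries and belong to the 20321 genes tested. Kcnq1ot1 had no row of its own, and reads along its annotated extent were followed through the repeat count table instead. Of 32 imprinting control regions in the hMeDIP count table, 2 belong to these clusters, the H19 region and the region at the start of Kcnq1ot1, here called KvDMR. The cells were naïve mouse embryonic stem (ES) cells, cultured in 2i and LIF. They were wild-type (WT), lacking Dnmt1, Dnmt3a and Dnmt3b (DNMT TKO) or lacking Tet1, Tet2 and Tet3 (TET TKO). For RNA-seq and hMeDIP, cells carried a pLKO lentiviral vector with an empty hairpin (shEmpty) or a hairpin against Kap1 (shKap1). They were selected with puromycin at 4 µg/mL and collected after 5 days. Each genotype was a single line and the DNMT TKO and TET TKO cells came from different laboratories, so that genotype and line cannot be told apart. RNA-seq had n = 3 per hairpin in WT and in DNMT TKO and n = 2 per hairpin in TET TKO. 5hmC was profiled in WT cells with 1 library per condition that the labels map without conflict, and H3K4me3 and H3K27me3 in WT cells with 2 replicates each. The labels of the H3K4me3 and H3K27me3 libraries give no hairpin, and no day or puromycin selection is recorded for them.

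Imprinted genes are transcribed mainly from the chromosome of a given parent. At H19 the control region is methylated on the paternal copy and bound by the insulator protein CTCF on the maternal copy, which separates Igf2 from shared enhancers. At Kcnq1 the maternally methylated KvDMR is the promoter of the long antisense RNA Kcnq1ot1, whose paternal transcription silences Cdkn1c, Phlda2, Slc22a18, Ascl2 and, in the early embryo, Kcnq1. KAP1 (gene Trim28) is brought to such regions by the zinc finger protein ZFP57 and recruits writers of H3K9me3, and TET enzymes convert 5mC into 5hmC. The counts do not separate the parental copies. In mm9, H19 (ENSMUSG00000000031) spans chr7:149761434-149764048, Igf2 (ENSMUSG00000048583) chr7:149836673-149852721, Ascl2 (ENSMUSG00000009248) chr7:150152727-150155169, Cdkn1c (ENSMUSG00000037664) chr7:150644255-150646955 and Phlda2 (ENSMUSG00000010760) chr7:150687450-150688446, all on the minus strand. Kcnq1 (ENSMUSG00000009545) spans chr7:150293159-150612955 and Slc22a18 (ENSMUSG00000000154) chr7:150659626-150685239 on the plus strand.

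The sequences below show the parts of both control regions richest in the methylated ZFP57 recognition hexamer, as well as the promoters of Igf2 and Ascl2, whose RNA rose with the hairpin, and of Kcnq1ot1, which starts beside KvDMR. Capitals mark TGCCGC or its reverse complement GCGGCA, searched on both strands. Coordinates are of mm9. The H19 window is chr7:149765930-149766229 on the plus strand, within the control region chr7:149765792-149767931, which lies upstream of H19 and holds 5 hexamers in 2140 bp.
H19 control region: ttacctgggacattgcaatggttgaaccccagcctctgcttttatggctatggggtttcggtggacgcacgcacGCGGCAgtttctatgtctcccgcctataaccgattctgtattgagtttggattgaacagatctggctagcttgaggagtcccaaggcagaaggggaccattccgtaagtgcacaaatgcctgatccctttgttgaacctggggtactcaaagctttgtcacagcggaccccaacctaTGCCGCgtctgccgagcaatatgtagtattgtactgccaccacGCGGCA
The KvDMR window is chr7:150481352-150481651 on the plus strand, within the control region chr7:150480737-150482006, which lies inside the body of Kcnq1 and holds 3 hexamers in 1270 bp.
KvDMR control region: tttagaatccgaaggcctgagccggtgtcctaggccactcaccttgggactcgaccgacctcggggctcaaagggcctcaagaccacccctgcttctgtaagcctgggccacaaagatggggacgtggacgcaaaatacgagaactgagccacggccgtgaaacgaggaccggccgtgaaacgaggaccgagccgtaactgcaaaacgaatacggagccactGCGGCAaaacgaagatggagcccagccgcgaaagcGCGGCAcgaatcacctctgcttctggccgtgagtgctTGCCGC
The upstream Igf2 promoter (chr7:149852672-149852971, minus strand), from RefSeq and matched to mm9, held no hexamer.
Igf2 promoter: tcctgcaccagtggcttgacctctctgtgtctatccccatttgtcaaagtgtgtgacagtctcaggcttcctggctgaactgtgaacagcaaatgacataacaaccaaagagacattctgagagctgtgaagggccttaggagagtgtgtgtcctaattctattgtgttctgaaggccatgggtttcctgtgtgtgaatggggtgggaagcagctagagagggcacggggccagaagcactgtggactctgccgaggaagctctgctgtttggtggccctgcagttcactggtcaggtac
The Ascl2 promoter (chr7:150155120-150155419, minus strand) held none either.
Ascl2 promoter: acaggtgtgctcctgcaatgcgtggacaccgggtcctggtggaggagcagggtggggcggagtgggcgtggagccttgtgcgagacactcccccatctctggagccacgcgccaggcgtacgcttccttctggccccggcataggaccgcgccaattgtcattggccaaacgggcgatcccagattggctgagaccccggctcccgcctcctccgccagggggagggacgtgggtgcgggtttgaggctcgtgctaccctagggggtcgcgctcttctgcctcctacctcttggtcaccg
The Kcnq1ot1 promoter (chr7:150482403-150482702, minus strand) surrounds a start 446 bp from the end of the control region and held none.
Kcnq1ot1 promoter: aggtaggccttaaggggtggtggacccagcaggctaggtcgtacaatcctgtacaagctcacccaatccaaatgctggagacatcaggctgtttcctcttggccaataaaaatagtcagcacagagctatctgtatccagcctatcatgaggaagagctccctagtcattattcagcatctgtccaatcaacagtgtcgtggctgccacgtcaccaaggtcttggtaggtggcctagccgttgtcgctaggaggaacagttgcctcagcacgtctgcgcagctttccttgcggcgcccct
Both control-region windows hold 3 hexamers each, whereas 11.6% of 32851 RefSeq promoters of the same length held at least 1 and 0.234% at least 3. Among 300-base windows at the centre of 1630 KAP1 regions of chromosome 7, 18.3% held at least 1 and 0.123% at least 3. The control-region windows were placed where hexamers are densest and the others were not, so these shares are a description. RefSeq gave a promoter for 5 of the 8 genes, with 4 starts for Igf2. Of the printed and unprinted promoters, the Igf2 promoter at 149847176 was the only one with a hexamer, and it held 1. KAP1 regions near these genes were searched too. That inside Ascl2 (chr7:150153279-150154440, 1162 bp) held 3 hexamers, as did the whole KvDMR control region. Upstream of Igf2, chr7:149853587-149854301 held 0 and chr7:149855076-149856487 held 1.

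The RNA libraries held 18108431 to 29373696 reads on genes (median 21794138.5). Trim28, the knockdown target, lay at 1627 to 1991 CPM (counts scaled to library size) in WT shEmpty and at 149 to 190 in WT shKap1, at 1701 to 2085 and 327 to 506 in DNMT TKO, and at 1771 to 1898 and 163 to 168 in TET TKO. Dnmt1, Dnmt3a and Dnmt3b were called lower in DNMT TKO than in WT, and Tet1 and Tet2 lower in TET TKO, while Tet3 gave a log2 difference of -0.031 ± 0.16 SE (adjusted p = 0.924, edgeR). The count table does not show which exons those reads come from. Summed ES cell markers (7 of 8 in the table, none at 0) ran from 4013 to 4518 CPM with shEmpty and from 2479 to 3152 with shKap1, and 4 markers of the 2-cell stage from 4.93 to 20.6 and from 49.0 to 488. Trophoblast markers, which matter here because several of these genes are known for their role in placenta, summed to 61.4 to 89.4 CPM in WT shEmpty and 89.1 to 90.5 in WT shKap1, to 23.7 to 37.3 and 11.9 to 34.1 in DNMT TKO, and to 92.4 to 97.6 and 83.9 to 89.0 in TET TKO, with Tpbpa at 0 throughout. Of 8 trophoblast markers tested, knockdown in WT called Hand1 (log2 2.52), Plac1 (1.47) and Gata3 (1.13) up and Elf5 (-3.42) down. Reads were few. Per WT library, Hand1 had 0 to 2 with shEmpty and 4 to 9 with shKap1. Plac1 had 2 to 17 and 15 to 24, and Elf5 4 to 7 and 0 to 1. In DNMT TKO Gata3 (1.70) was called up, on 4 to 7 and 8 to 29 reads, and Cdx2 (-2.47) down. In TET TKO 0 were called by edgeR, DESeq2 or limma-voom, with 0, 0 and 1 at an unadjusted p below 0.05. In WT the tools called 4, 3 and 5 of the 8, beside 17.4% of all genes by edgeR. In DNMT TKO and in TET TKO edgeR called 12.5% of all genes. With 8 markers these counts are a description. Primitive endoderm markers summed to 14.0 to 18.6 CPM in WT shEmpty and 15.2 to 17.3 in WT shKap1. They summed to 7.52 to 10.1 and 12.4 to 16 in DNMT TKO, and to 15.1 to 17.0 and 17.5 to 17.9 in TET TKO. Of 7 tested, knockdown called 1 up and 2 down in WT, 2 up in DNMT TKO and 0 in TET TKO. These stand beside 17.4%, 12.5% and 12.5% of all genes. In WT, Sox17 rose from a mean of 0.425 to 2.02 CPM, while Sox7 went from 2.38 to 0.475 and Dab2 from 5.91 to 1.67. Mesoderm markers summed to 4.92 to 6.55 CPM and 2.62 to 3.73 in WT. They summed to 17.2 to 21.4 and 7.06 to 9.22 in DNMT TKO, and to 5.63 to 6.52 and 3.94 to 4.36 in TET TKO. Each sum was lower with shKap1 without overlap, but not every marker fell. Of 5 tested, knockdown called 1 up and 2 down in WT, 0 and 2 in DNMT TKO and 0 and 1 in TET TKO. These stand beside 17.4%, 12.5% and 12.5% of all genes. Hand2 went from a mean of 0.292 to 0.650 CPM in WT. Tbx6 went from 0.274 to 0.373 in DNMT TKO and from 0.234 to 0.355 in TET TKO. The part of these shifts in the results below was not tested. In bulk RNA, fewer cells of a type and less RNA per cell cannot be told apart. Replicate 1 stood apart in WT and DNMT TKO. The chi-square of counts per gene was 11.1 to 15.3 between replicate 1 and the others of its group, against 1.81 to 5.97 between replicates 2 and 3, and it was 45.6 between the TET TKO shEmpty replicates. Results that rest on replicate 1 are given with and without it. Fits with replicates 2 and 3 only leave out the spread between replicate 1 and the others. Their p-values do not cover that spread.

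In WT shEmpty cells all 7 counted genes were expressed at a low level. Per kb of annotated exon, Phlda2, a growth-restraining pleckstrin-homology protein of the placenta, was highest at 4.46 ± 0.652 CPM per kb (SD, n = 3). Igf2 followed at 1.75 ± 0.617, Slc22a18, a membrane transporter, at 1.06 ± 0.174 and Cdkn1c, a cyclin-dependent kinase inhibitor, at 0.920 ± 0.277. H19, a long non-coding RNA, stood at 0.914 ± 0.363 and Ascl2, a transcription factor of the trophoblast, at 0.776 ± 0.165. Kcnq1, a potassium channel, was the lowest at 0.0623 ± 0.0143 CPM per kb, from 14 reads in 3 libraries. From Slc22a18 to Ascl2 each level differed from the next by less than its SD, whereas Phlda2 and Kcnq1 stood clear of their neighbours in this order.

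**Figure D1:**
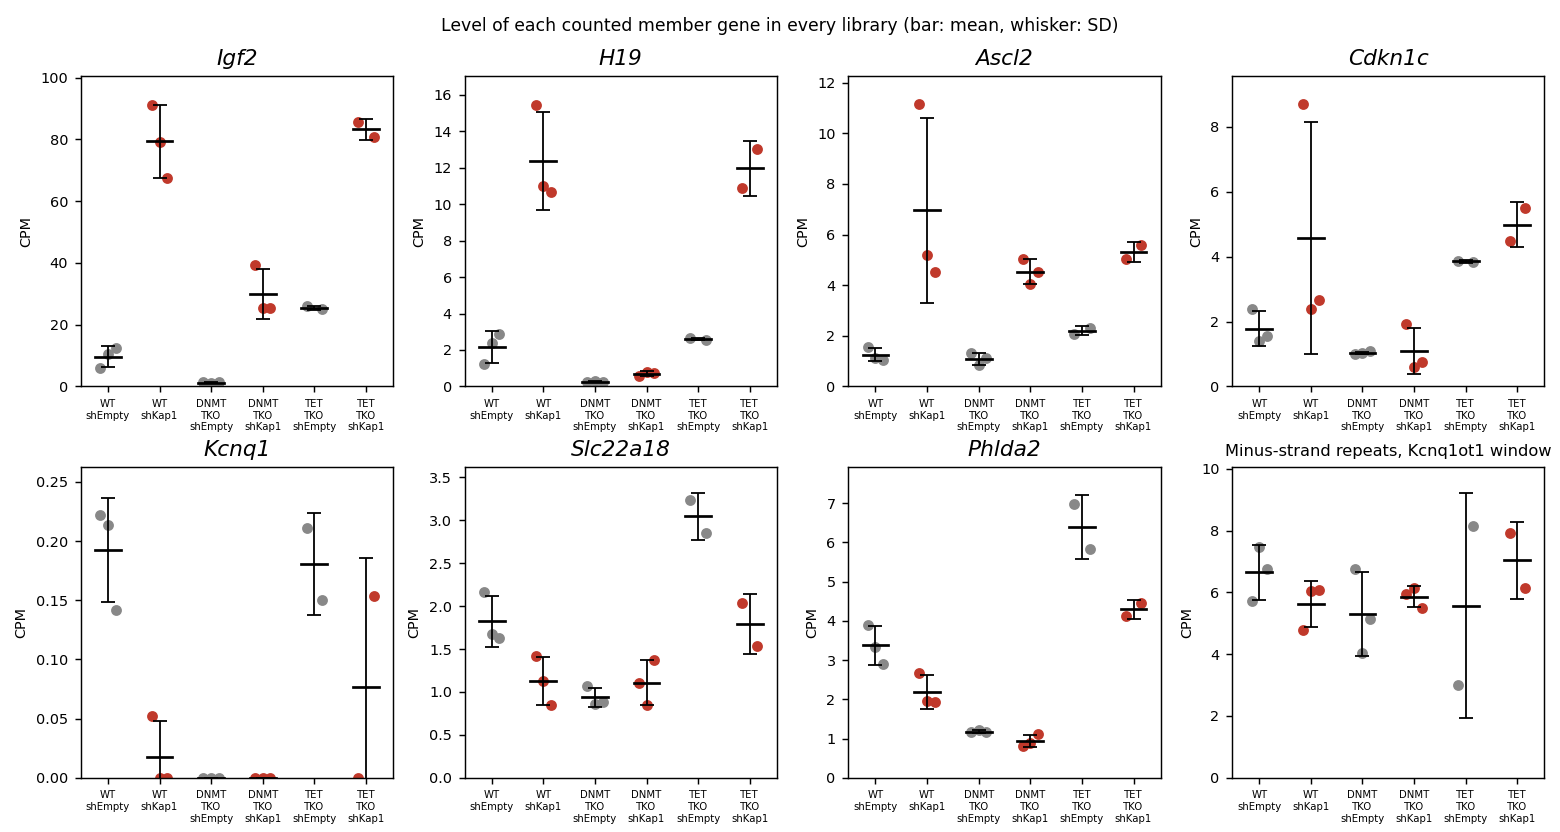
Level of each counted gene, and of the summed minus-strand repeats along Kcnq1ot1, in CPM (linear axis from 0) in every RNA library, by genotype and hairpin. Points are libraries, bars the mean and whiskers the SD. Igf2 in WT rose from 5.83 to 12.4 CPM with shEmpty to 67.5 to 91.3 with shKap1, and Phlda2 stood at 2.90 to 3.89 with shEmpty and at 1.92 to 2.67 with shKap1.

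The first comparison asks what these genes do when Kap1 is depleted in WT cells. Igf2, the fetal growth factor, stood at 5.83, 10.6 and 12.4 CPM in the WT shEmpty libraries and at 91.3, 79.3 and 67.5 CPM in the WT shKap1 libraries. The hairpin groups did not overlap, and Igf2 was 8.08-fold higher with shKap1 (log2 change 3.02 ± 0.23 SE, adjusted p = 2.43e-07, edgeR quasi-likelihood test). H19 stood at 1.22, 2.38 and 2.90 CPM with shEmpty and at 15.5, 11 and 10.7 CPM with shKap1. Every shKap1 library exceeded every shEmpty library, and H19 was 5.53-fold higher (log2 2.47 ± 0.22, adjusted p = 7.04e-08). Both genes of the Igf2-H19 cluster thus rose together, and the annotated gene bodies do not overlap.

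In the Kcnq1 cluster the genes did not move one way. Ascl2 stood at 1.55, 1.14 and 1.06 CPM with shEmpty and at 11.2, 5.20 and 4.53 CPM with shKap1. The groups did not overlap, replicate 1 was the highest, and Ascl2 was 5.64-fold higher (log2 2.50 ± 0.30, adjusted p = 2.38e-06). Cdkn1c stood at 2.39, 1.39 and 1.56 CPM with shEmpty and at 8.70, 2.38 and 2.67 CPM with shKap1. The groups overlapped only in that replicate 1 of shEmpty (2.39) lay just above replicate 2 of shKap1 (2.38), Cdkn1c was higher with shKap1 within each of the 3 same-numbered pairs, and the gap was widest in replicate 1. With the replicate number as a block the log2 change was 1.27 (adjusted p = 0.0127). Without the block it was 1.39 ± 0.46 (adjusted p = 0.0235), and it was 0.55 (adjusted p = 0.189) without WT shKap1 replicate 1 and 0.79 (adjusted p = 0.00248, under 2-fold) with replicates 2 and 3 only. Without WT shEmpty replicate 2 or 3 its adjusted p was 0.0855 and 0.0744.

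Phlda2, the most highly expressed of the cluster per length, stood at 3.89, 3.34 and 2.90 CPM with shEmpty and at 2.67, 1.95 and 1.92 CPM with shKap1. Its groups did not overlap, and the difference stayed under 2-fold (log2 -0.62 ± 0.19, adjusted p = 0.0108). Slc22a18, its neighbour, stood at 2.17, 1.67 and 1.63 CPM with shEmpty and at 1.42, 1.13 and 0.853 CPM with shKap1, also without overlap (log2 -0.67 ± 0.24, adjusted p = 0.0332). Kcnq1 stood at 0.222, 0.213 and 0.142 CPM with shEmpty, whereas with shKap1 it had 0.0524 CPM in replicate 1 and no read in the others. That is 14 reads against 1 read, a ratio of 0.0872 with a 95% counting interval of 0.00206 to 0.573. Kcnq1 was called lower (adjusted p = 0.0268), but the call was lost in DESeq2 (adjusted p = 0.128) and without WT shEmpty replicate 2 (adjusted p = 0.0656), WT shKap1 replicate 2 (0.101) or WT shKap1 replicate 3 (0.0835).

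Thus 5 of the 7 counted genes were called in WT at an adjusted p below 0.05 and a 2-fold change, 4 of them up and 1 down, against 17.4% of all genes tested (10.8% up and 6.54% down). With only the WT groups in the fit 3 were called, Igf2, H19 and Ascl2, since Cdkn1c missed the threshold (adjusted p = 0.056) and Kcnq1 did not reach 16 reads, and with no filter on low counts 4 were called, without Cdkn1c (adjusted p = 0.0552). Igf2, H19 and Ascl2 had non-overlapping hairpin groups upwards, where 26.9% of all genes did, and Phlda2, Slc22a18 and Kcnq1 downwards, where 27.4% did. The median log2 change of all genes was -0.0098. With 7 genes these shares describe the members and are no test of the clusters.

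In DNMT TKO cells the same hairpin was compared without the 3 DNA methyltransferases. Igf2 stood at 1.37, 1.00 and 1.35 CPM with shEmpty and at 39.4, 25.3 and 25.3 CPM with shKap1. It started lower than in WT, the groups did not overlap, and it was 24.4-fold higher (log2 4.61 ± 0.31, adjusted p = 1.52e-07). H19 stood at 0.254, 0.276 and 0.231 CPM with shEmpty and at 0.576, 0.799 and 0.742 CPM with shKap1. The groups did not overlap although both stayed below every WT library, and H19 was 2.75-fold higher (log2 1.46 ± 0.41, adjusted p = 0.0103), on 19 and 49 reads in all. Ascl2 stood at 1.32, 0.829 and 1.12 CPM with shEmpty and at 5.04, 4.04 and 4.52 CPM with shKap1, again without overlap (4.22-fold higher, log2 2.08 ± 0.31, adjusted p = 4.9e-05).

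The remaining genes passed no threshold in DNMT TKO. Cdkn1c stood at 1.02, 1.04 and 1.08 CPM with shEmpty and at 1.92, 0.611 and 0.742 CPM with shKap1, where replicate 1 lay above and the others below the control libraries (log2 0.036 ± 0.56, adjusted p = 0.973). Phlda2 stood at 1.17, 1.21 and 1.16 CPM with shEmpty and at 0.817, 0.893 and 1.11 CPM with shKap1, without overlap (log2 -0.31 ± 0.23, adjusted p = 0.327). Slc22a18 stood at 1.07, 0.863 and 0.887 CPM with shEmpty and at 1.10, 0.846 and 1.37 CPM with shKap1, and its groups overlapped (log2 0.26 ± 0.26, adjusted p = 0.471). Kcnq1 had no read in any of the 6 DNMT TKO libraries, so no change could be given. Igf2, H19 and Ascl2 were the 3 genes called, all up, against 12.5% of all genes (10.1% up and 2.41% down). Non-overlapping groups upwards were found for 24.6% of all genes and downwards for 20.2%.

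In TET TKO cells the comparison had 2 libraries per hairpin. Igf2 stood at 26.0 and 24.9 CPM with shEmpty and at 85.6 and 80.8 CPM with shKap1. It started higher than in WT and lay within the range of WT shKap1 afterwards (3.27-fold higher, log2 1.71 ± 0.26, adjusted p = 0.000246). H19 stood at 2.64 and 2.55 CPM with shEmpty and at 10.9 and 13.0 CPM with shKap1, within its WT range under both hairpins (4.59-fold higher, log2 2.20 ± 0.27, adjusted p = 5.33e-06). Ascl2 stood at 2.08 and 2.33 CPM with shEmpty and at 5.05 and 5.59 CPM with shKap1 (2.41-fold higher, log2 1.27 ± 0.34, adjusted p = 0.00845). For none of these 3 genes did the hairpin groups overlap. Without TET TKO shEmpty replicate 1 or shKap1 replicate 2 the adjusted p of Ascl2 was 0.0671 and 0.0526.

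Cdkn1c stood at 3.88 and 3.83 CPM with shEmpty and at 4.49 and 5.49 CPM with shKap1, without overlap (log2 0.37 ± 0.51, adjusted p = 0.647). Slc22a18 stood at 3.24 and 2.85 CPM with shEmpty and at 2.04 and 1.54 CPM with shKap1 (log2 -0.76 ± 0.27, adjusted p = 0.0379, under 2-fold). Phlda2 stood at 6.98 and 5.82 CPM with shEmpty and at 4.12 and 4.47 CPM with shKap1 (log2 -0.58 ± 0.21, adjusted p = 0.0408, under 2-fold). Both were lower with shKap1 in every library, as in WT. Kcnq1 had 10 reads with shEmpty and 3 with shKap1, a ratio of 0.402 (95% counting interval 0.0710 to 1.56). Igf2, H19 and Ascl2 were again the genes called, against 12.5% of all genes (8.05% up and 4.46% down). With 2 libraries against 2, groups did not overlap upwards for 33.6% and downwards for 36.2% of all genes.

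**Figure D2:**
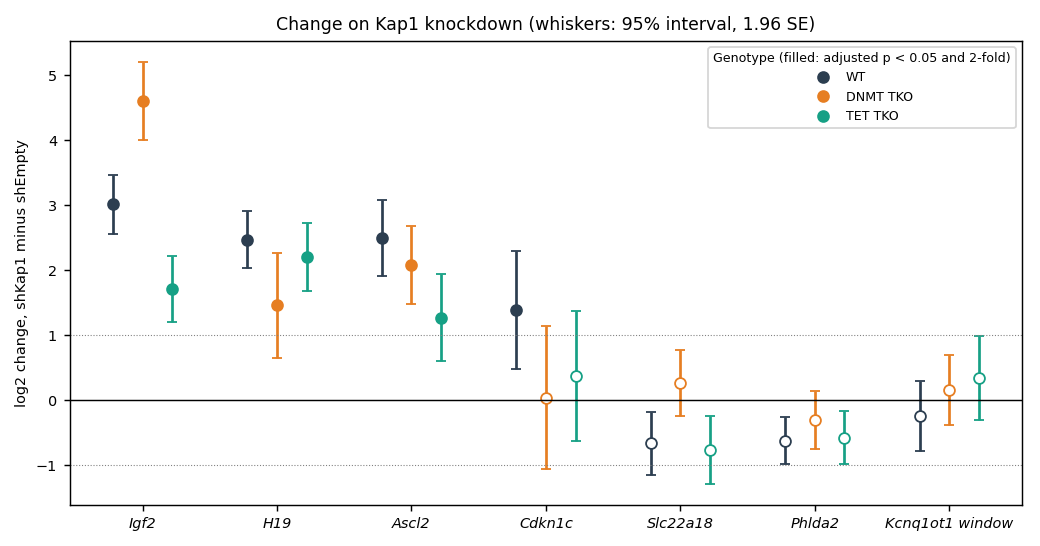
Change on Kap1 knockdown for 6 counted genes and for the summed minus-strand repeats along Kcnq1ot1, as log2 of shKap1 over shEmpty, by genotype. Whiskers are 95% intervals and filled points passed an adjusted p of 0.05 and 2-fold. Of the genes shown, Igf2 spread most between genotypes, from 1.71 in TET TKO to 4.61 in DNMT TKO, and the Kcnq1ot1 points lay at -0.24, 0.16 and 0.34.

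Before knockdown the genotypes already differed at these genes. DNMT TKO and TET TKO were each compared with the same WT shEmpty libraries, so the comparisons are not independent of each other. In DNMT TKO, H19 was 8.61-fold lower (log2 -3.11 ± 0.34, adjusted p = 8.72e-07) and Igf2 7.99-fold lower (log2 -3.0 ± 0.33, adjusted p = 7.57e-06) than in WT, with no overlap of the library values given above. Phlda2 was 2.84-fold lower (log2 -1.50 ± 0.20, adjusted p = 6.61e-06) and Slc22a18 1.93-fold lower (log2 -0.95 ± 0.24, adjusted p = 0.00409). Without DNMT TKO shEmpty replicate 1, or without WT shEmpty replicate 2 or 3, Slc22a18 passed 2-fold (log2 -1.01, -1.0 and -1.02). Kcnq1 had 0 reads against 14, which is at least 4.68-fold lower when 3 reads over the group are taken as the floor (adjusted p = 0.00524). Ascl2 (log2 -0.19 ± 0.35, adjusted p = 0.694) and Cdkn1c (log2 -0.73 ± 0.52, adjusted p = 0.289) passed no threshold. Hence 4 of 7 genes were called, all lower, against 16.3% of all genes (8.05% lower and 8.23% higher).

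In TET TKO, Igf2 was 2.59-fold higher than in WT (log2 1.37 ± 0.25, adjusted p = 0.00111) and was the 1 gene called, against 10.5% of all genes (5.66% higher and 4.8% lower). Phlda2 (log2 0.93 ± 0.19, adjusted p = 0.000967) and Slc22a18 (log2 0.76 ± 0.24, adjusted p = 0.0227) were higher but under 2-fold, and Phlda2 passed 2-fold without WT shEmpty replicate 1 (log2 1.03) or TET TKO shEmpty replicate 2 (log2 1.05). Cdkn1c (log2 1.15 ± 0.50, adjusted p = 0.107) and Ascl2 (log2 0.84 ± 0.35, adjusted p = 0.0842) passed no threshold in the fit over all libraries. With replicates 2 and 3 only in WT and DNMT TKO, 4 genes were called by edgeR. They were Igf2 (log2 1.15), Cdkn1c (1.39, adjusted p = 3.05e-07), Phlda2 (1.04, adjusted p = 1.07e-06) and Ascl2 (1.00, adjusted p = 0.000381). These p-values leave out the spread between replicate 1 and the others. H19 gave a log2 difference of 0.22 ± 0.26 (adjusted p = 0.595).

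Whether the knockdown effect itself depended on the genotype was tested by an interaction term. For Igf2 the effect in DNMT TKO exceeded that in WT by 1.59 on the log2 scale (SE 0.40, adjusted p = 0.0153), and 11 of the 12 fits that left out a library kept the call. Without DNMT TKO shEmpty replicate 2 it was 1.44 (adjusted p = 0.0593). In TET TKO the effect on Igf2 differed from that in WT by -1.31 (SE 0.34, adjusted p = 0.0301). That call was lost without WT shEmpty replicate 2, WT shKap1 replicate 1 or any 1 of the 4 TET TKO libraries (adjusted p = 0.0506 to 0.096), and with replicates 2 and 3 only it was -0.97 (adjusted p = 6.26e-08), under 2-fold. It was also lost with the replicate number as a block (-1.28, adjusted p = 0.0516) and with no filter on low counts (-1.32, adjusted p = 0.0579). Each term thus called 1 of the counted genes, against 7.14% of all genes in DNMT TKO (4.66% upwards and 2.48% downwards) and 4.21% in TET TKO (2.08% upwards and 2.13% downwards). The knockdown of Trim28 itself was shallower in DNMT TKO, by 1.28 on the log2 scale (adjusted p = 0.000803), and its part in the interaction of Igf2 was not tested.

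No other gene passed the interaction tests in the fit over all libraries. The difference for H19 in DNMT TKO was -1.01 (95% interval -2.01 to -0.012, adjusted p = 0.194) and in TET TKO -0.27 (-0.94 to 0.40). For Ascl2 it was -0.42 in DNMT TKO (-1.28 to 0.44, adjusted p = 0.583) and -1.23 in TET TKO (-2.12 to -0.33, adjusted p = 0.103), where it passed without WT shKap1 replicate 3 (-1.46, adjusted p = 0.0427). For Cdkn1c it was -1.35 in DNMT TKO (-2.78 to 0.076, adjusted p = 0.238) and -1.02 in TET TKO (-2.37 to 0.34). With replicates 2 and 3 only, Cdkn1c (-1.44, adjusted p = 0.00244) and Slc22a18 (1.05, adjusted p = 0.0476) passed in DNMT TKO. Slc22a18 gave 0.93 (0.23 to 1.63, adjusted p = 0.0814) in the fit over all libraries, and Phlda2 0.31 in DNMT TKO (-0.27 to 0.90) and 0.047 in TET TKO (-0.49 to 0.58).

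Kcnq1ot1 starts at chr7 position 150482452 on the minus strand in mm9, by an exact match of its RefSeq promoter, and its RefSeq length of 83437 bp gives a window of chr7:150399016-150482452 inside Kcnq1, which runs on the plus strand. The window holds 76 repeat integrants on the minus strand and 17 on the plus strand. The repeat counts follow the transcribed strand, as 99.0% of reads on integrants inside an exon in a WT shEmpty library were on integrants of the same strand as the exon. Minus-strand integrants in the window held 103, 210 and 191 reads in WT shEmpty and 91, 140 and 114 in WT shKap1. They held 133, 117 and 133 reads in DNMT TKO shEmpty and 124, 131 and 148 in DNMT TKO shKap1. In TET TKO they held 85 and 217 reads with shEmpty and 171 and 120 with shKap1. Every library thus showed minus-strand reads there, and the hairpin groups overlapped in each genotype.

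The plus-strand integrants of the window had 0 reads in all 16 libraries. Along the rest of Kcnq1, 139 minus-strand integrants held 0 to 3 reads per library and 79 plus-strand integrants held 0 to 3. In CPM the window stood at 5.72, 7.47 and 6.76 in WT shEmpty and at 4.77, 6.06 and 6.08 in WT shKap1, with a log2 change of -0.24 ± 0.27 (adjusted p = 0.502). In DNMT TKO it stood at 6.75, 4.04 and 5.13 with shEmpty and at 5.96, 6.16 and 5.49 with shKap1 (log2 0.16 ± 0.27, adjusted p = 0.707). In TET TKO it stood at 3.00 and 8.15 with shEmpty and at 7.92 and 6.16 with shKap1 (log2 0.34 ± 0.33, adjusted p = 0.486). The TET TKO value rested on its shEmpty replicates, since it was 1.23 without replicate 2 (adjusted p = 0.00638) and -0.21 without replicate 1 (adjusted p = 0.632). Each of these fits left 1 shEmpty library, which was assumed to vary like the other groups, and the libraries stood at 3.00 and 8.15 CPM. The knockdown effect in TET TKO differed from that in WT by 0.59 ± 0.43 (adjusted p = 0.455), and by 1.48 (adjusted p = 0.0191) without replicate 2 under the same assumption. With shEmpty the window in DNMT TKO differed from that in WT by -0.35 ± 0.27 (adjusted p = 0.33) and in TET TKO by -0.27 ± 0.30 (adjusted p = 0.568), or by -1.16 (adjusted p = 0.00867) with only the lower of its 2 libraries. Reads in repeats of the window are a stand-in and not a count of the Kcnq1ot1 transcript.

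**Figure D3:**
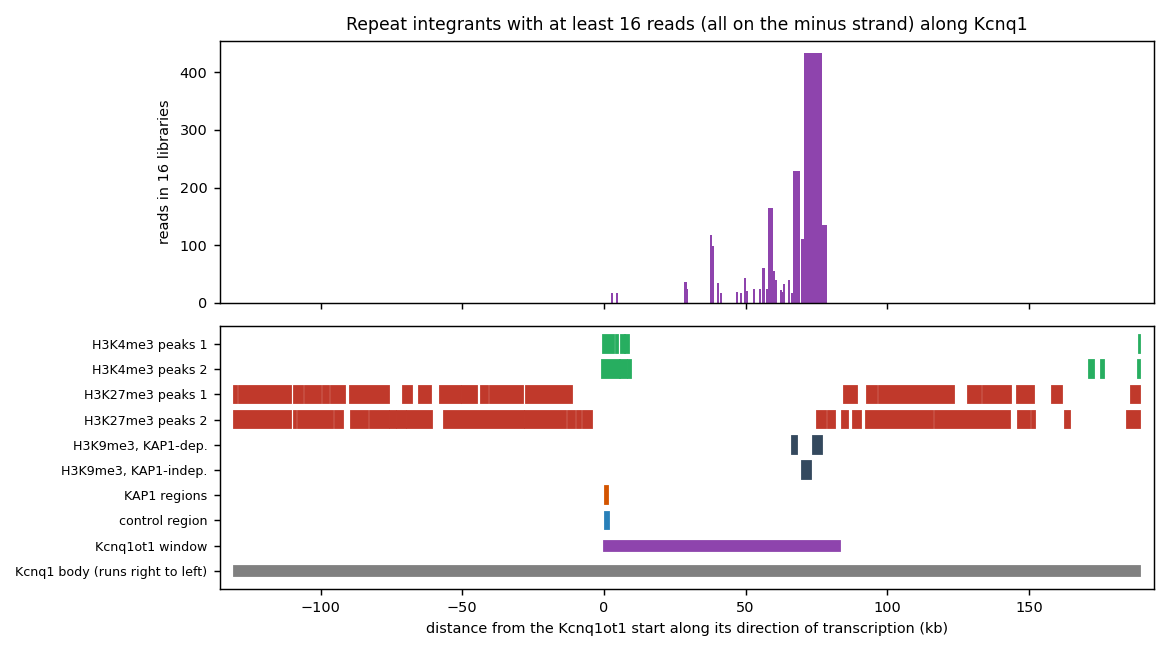
Reads of minus-strand repeat integrants along Kcnq1 (upper panel, linear axis, integrants with at least 16 reads in 16 libraries) above the peaks and regions called in WT cells (lower panel), against distance in kb from the Kcnq1ot1 start. Integrants with reads lie within the 83437 bp window, the highest with 433 reads, and H3K27me3 peaks cover 0% to 6.47% of the window against 68.1% to 75.7% of the rest of Kcnq1.

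The chromatin marks of WT cells also differed between this window and the rest of Kcnq1. H3K27me3, the mark of Polycomb repression, covered 0% of the Kcnq1ot1 window in replicate 1 and 6.47% in replicate 2, but 68.1% and 75.7% of the rest of the Kcnq1 body. H3K4me3, the mark of active promoters, covered 8.33% and 11.2% of the window and 0.361% and 1.7% of the rest. Within 1 kb of the outermost annotated gene start, H3K4me3 peaks were found in both replicates at Cdkn1c, Phlda2, Ascl2, Kcnq1 and Kcnq1ot1, and in neither at Igf2, H19 and Slc22a18. Of the 3 inner RefSeq starts of Igf2, those at 149844709 (scores 118.07 and 223.75) and 149847176 (90.23 and 214.52) had an H3K4me3 peak in both replicates, with scores below the list medians of 350.44 and 375.455, and that at 149843401 had none. The peak at the Kcnq1ot1 start scored 2528.41 and 3100, the 91.7 and 99.1 percentile of its lists, whereas those at Phlda2 (37.4 and 59.5 percentile) and Cdkn1c (48.8 and 56.7) were middling. H3K27me3 peaks stood at the starts of Igf2, Cdkn1c, Phlda2, Ascl2 and Kcnq1 in both replicates, and at H19 and Slc22a18 in replicate 1 only. The strongest was at Cdkn1c, with scores of 932 and 1596 (99.6 and 99.8 percentile). H3K27me3 peaks also lay within 1 kb of the 3 inner starts of Igf2 in both replicates. Starts of Cdkn1c, Phlda2, Ascl2, Kcnq1 and, at 2 of its inner starts, Igf2 thus had both marks, and Kcnq1ot1 had H3K4me3 alone. Marks after knockdown were not analysed here.

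Of repeat integrants within or near the member genes, 30 reached 16 reads, all in the Kcnq1 cluster, and none did in the Igf2-H19 cluster. All but the B2_Mm1a element given below lie on the minus strand in the Kcnq1ot1 window. Their reads are among those summed above, so the 30 are not independent of that sum or known to be independent of each other. In WT, 2 of the 30 were called lower with shKap1, against 14.2% of 123904 integrants called overall (12.1% higher and 2.05% lower). The first was an L1VL4 element at chr7:150413175-150415692, which went from 11, 12 and 26 reads in WT shEmpty to 5, 6 and 5 in WT shKap1 (log2 -1.30 ± 0.44, adjusted p = 0.0261), and 1492 bp of it lie in an H3K9me3 region that depends on KAP1. The other, named after its values were seen, was a MusHAL1 element at chr7:150403594-150405493, with 12, 13 and 16 reads and 7, 3 and 3 reads (log2 -1.35 ± 0.49, adjusted p = 0.0436). Both lie in the Kcnq1ot1 window. The L1_Mus3 element with the most reads there (chr7:150405542-150411895) had 22, 38 and 22 reads in WT shEmpty and 21, 16 and 14 in WT shKap1 and was not called (log2 -0.40 ± 0.32, adjusted p = 0.512). An L1_Mur2 element (chr7:150422791-150424460) had 6, 16 and 10 reads and 10, 15 and 13 reads (log2 0.54 ± 0.42, adjusted p = 0.492). In DNMT TKO 0 of the 30 were called by edgeR and 0 had an unadjusted p below 0.05, against 16% called overall (15% higher and 0.943% lower). In TET TKO a B2_Mm1a element near Phlda2 and Slc22a18 (chr7:150691620-150691815) was called higher, with 29 and 14 reads against 39 and 30 (log2 1.10 ± 0.39, adjusted p = 0.0295), against 15.7% overall (14.7% higher and 0.972% lower). The call was lost with library scaling from the integrant table itself. The median log2 change of the 30 integrants was -0.32 in WT, 0.20 in DNMT TKO and 0.37 in TET TKO, beside 0.23, 0.27 and 0.33 for all integrants tested.

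5hmC was then compared at the control regions, where each condition had 1 library, so that intervals cover counting error only and no test was run. The counts are of reads and not of independent molecules. At the H19 control region the shEmpty cells gave 34 reads in input and 45 in the 5hmC fraction, and the shKap1 cells 46 and 144. The log2 change of 5hmC over input was 1.57 (95% counting interval 0.77 to 2.36), rank 8 of 28 control regions with at least 10 input reads. At KvDMR the shEmpty cells gave 19 reads in input and 46 in the 5hmC fraction, and the shKap1 cells 24 and 87. The log2 change was 0.92 (-0.073 to 1.91), rank 14 of 28. The intervals of the regions overlap each other. KvDMR had the highest ratio of 5hmC to input of the 28 regions before knockdown (log2 0.46), and H19 had rank 9 (log2 -0.38). The regions next to KvDMR in that order, 6330408A02Rik (0.37) and Grb10 (0.29), lay close to it. These ranks carry no interval and do not set the regions apart. After knockdown the ratios of KvDMR and H19 were 1.38 and 1.19.

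The median log2 change was 0.91 over the 28 control regions and 0.46 over 87884 regions of all sets, of which 21.9% had an interval above 0 and 1.45% below. Scaling to reads over H3K4me3 regions brought the median of all regions to 0.068, H19 to 1.18 and KvDMR to 0.53. Leaving the largest single region out of the scaling brought the median of all regions to 0.088.

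**Figure D4:**
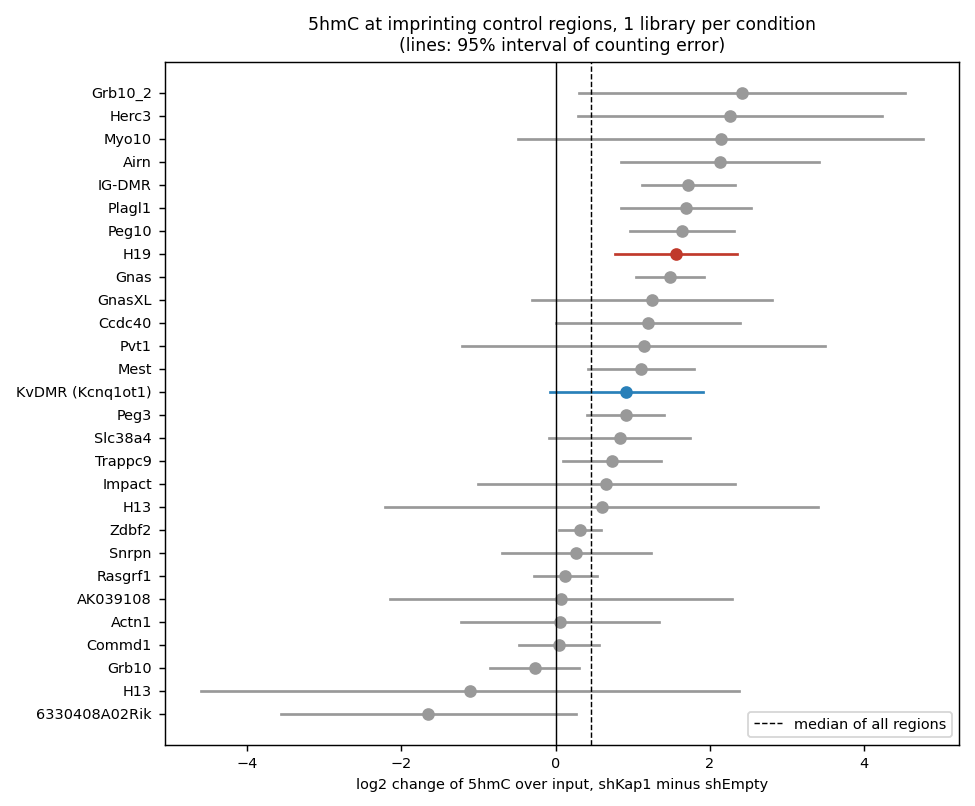
Change of 5hmC over input on Kap1 knockdown (log2, shKap1 minus shEmpty, 1 library per condition) at 28 imprinting control regions. Lines are 95% counting intervals and the dashed line is the median of all regions, 0.46. H19 (1.57) lies with its interval above 0, and KvDMR (0.92) has an interval that crosses 0.

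Across the Igf2-H19 cluster, taken to 20 kb beyond its outer genes, 6 of 26 other regions had an interval above 0 and 1 below. They were 3 of 4 KAP1 regions, 2 of 3 KAP1-dependent H3K9me3 regions and 1 of 16 H3K27me3 regions, which lies over Igf2 (chr7:149843601-149847799, log2 0.84, 0.18 to 1.51). With scaling to reads over H3K4me3 regions this H3K27me3 region gave 0.45 (-0.21 to 1.12), and the other 5 kept an interval above 0. Intervals below 0, and the share of all regions above 0, were not counted under that scaling. Among all KAP1 regions 26.6% had an interval above 0, among all KAP1-dependent H3K9me3 regions 41.2% and among all H3K27me3 regions 14.4%. Regions of different sets overlap here and share reads. Upstream of Igf2, at chr7:149855076-149856487, a KAP1 region went from 25 input and 53 5hmC reads in shEmpty to 31 and 173 in shKap1 (log2 1.72, 0.86 to 2.59). It overlaps an H3K9me3 region at chr7:149855401-149856399, where input reads were 18 and 25 and 5hmC reads went from 35 to 147 (log2 1.92, 0.92 to 2.92). That region begins 2680 bp upstream of the annotated Igf2 start, and a further KAP1 region, at chr7:149853587-149854301 and 866 bp from the start, gave 0.33 (-0.82 to 1.48). At H19 the KAP1 regions chr7:149765594-149766788 and chr7:149767048-149768377, which overlap the control region, gave 1.86 (0.77 to 2.95) and 1.48 (0.53 to 2.42). The H3K27me3 region chr7:149819401-149820799, between both genes, was the 1 with an interval below 0 (log2 -1.02, -1.95 to -0.10).

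**Figure D5:**
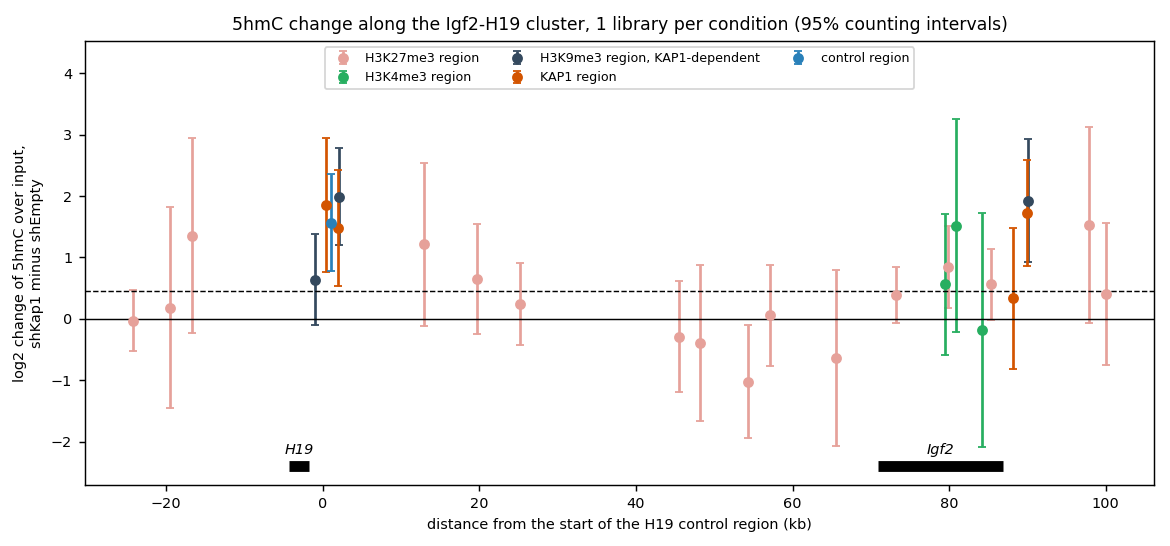
Change of 5hmC over input along the Igf2-H19 cluster (log2, shKap1 minus shEmpty, 1 library per condition) against distance in kb from the start of the H19 control region, by kind of region. Bars are 95% counting intervals, the dashed line is the median of all regions and the black blocks are the gene bodies. The highest values lie at H19 (up to 1.99) and upstream of Igf2 (1.92).

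Across the Kcnq1 cluster 4 of 65 regions had an interval above 0 and 1 below, beside 21.9% and 1.45% of all regions. Those above 0 were 3 of 42 H3K27me3 regions and 1 of 17 H3K4me3 regions. In these sets 14.4% and 12.4% of all regions had an interval above 0. With scaling to reads over H3K4me3 regions, or to all region sets minus the largest region, 0 of the 65 had an interval above 0. These 4 thus rest on the scaling. Both scalings lower every value, also outside the cluster. The share of all regions with an interval above 0 was not counted under them, nor were regions with an interval below 0. Of the 4, 3 were H3K27me3 regions, and that over the Phlda2 start (chr7:150685201-150689599) gave 0.78 (0.10 to 1.45). The H3K4me3 region chr7:150478804-150482732, which contains KvDMR, was the other, from a set where 12.4% of all regions had an interval above 0, and its input reads were 65 and 97 while 5hmC reads went from 64 to 142 (log2 0.90, 0.28 to 1.52). The KAP1 region over KvDMR gave 0.88 (-0.10 to 1.86). The KAP1 region chr7:150153279-150154440, inside Ascl2 and 729 bp from its start, had few 5hmC reads, 7 and 11 beside 26 and 26 in input (log2 0.92, -0.58 to 2.42). The KAP1-dependent H3K9me3 regions over the L1_Mus3 and L1VL4 elements of the Kcnq1ot1 window gave -0.27 (-1.24 to 0.71) and -0.24 (-1.15 to 0.66). A gain at Ascl2 was thus not detectable at this depth.

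Among 22 neighbouring genes of the clusters 17 were tested. In WT 4 were called higher with shKap1 and 0 lower by edgeR, and 3 were called by DESeq2 and 3 by limma-voom (median log2 change 0.090), beside 10.8% of all genes called higher and 6.54% lower. Igf2as, antisense to Igf2 and counted by strand, rose by a log2 of 1.54 (adjusted p = 0.0033), Tnfrsf23 by 1.37 (adjusted p = 0.00184), Th, tyrosine hydroxylase, by 1.31 (adjusted p = 0.0342) and Osbpl5 by 1.03 (adjusted p = 0.0111). Th had 5 to 8 reads per WT shEmpty library and 5 to 22 per WT shKap1 library. Its hairpin groups overlapped, at 0.278 to 0.285 CPM and 0.267 to 1.15 CPM. In DNMT TKO 0 were called by edgeR, DESeq2 or limma-voom, beside 12.5% of all genes by edgeR, and 2 had an unadjusted p below 0.05 in edgeR, 3 in DESeq2 and 2 in limma-voom (median 0.086), where Igf2as gave 1.43 (adjusted p = 0.142) on 1 to 10 reads per library. In TET TKO, where 12.5% of all genes were called, Igf2as was the 1 neighbour called, and it was lower with shKap1 (log2 -1.26, adjusted p = 0.03 in edgeR, a call that DESeq2 did not make), at 3.81 to 4.43 CPM with shEmpty and 1.39 to 2.04 with shKap1. In WT it had been at 0.498 to 1.44 and 1.65 to 2.94 CPM. Igf2as and Igf2 therefore moved in opposite directions in TET TKO.

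Of the IGF pathway, 15 of 16 listed genes were tested. Igfbp3, which binds IGFs outside the cell, rose in all 3 genotypes, by a log2 of 3.35 in WT (adjusted p = 6.05e-13), 3.31 in DNMT TKO and 3.95 in TET TKO. In WT, Irs1, an adaptor of the IGF and insulin receptors, rose by 1.83 and Igfbp5 by 1.38, while Igfbp2 fell by 1.40, and 3 were called up and 2 down (median 0.21), beside 17.4% of all genes called in either direction. In DNMT TKO 2 were called up, Igfbp3 and Irs1 (median -0.056), and in TET TKO Igfbp3 up and Igfbp7 down (median -0.14), beside 12.5% of all genes in each of these genotypes. Of 20 genes known for keeping imprints or for writing or removing their marks, all tested, Trim28 was called lower in each genotype. Tet3 (1.80) and Dnmt3a (1.15) were called higher in WT and Dnmt3a (1.26) in TET TKO, and in DNMT TKO no other gene was called. These were 3, 1 and 2 genes of 20, beside 17.4%, 12.5% and 12.5% of all genes, and the medians were -0.24, -0.14 and -0.12.

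Over the 16 libraries, the log2 CPM of Slc22a18 and Phlda2 correlated with r = 0.877, of Igf2 and Ascl2 with 0.866 and of H19 and Igf2 with 0.837, whereas Ascl2 and Phlda2 gave 0.00382. The genes most like each member, among 16637 candidates with at least 100 reads, were by r Sc5d (0.977), Trim26 (0.973) and Atf5 (0.972) for H19, and Sema6a (0.971), Stc2 (0.963) and Insrr (0.962) for Igf2, and Pgap1 (0.97 and 0.963, under 2 identifiers) and Dcaf10 (0.965) for Ascl2, and Rbmx (0.926), Trim54 (0.92) and Col4a2 (0.911) for Cdkn1c, and Fam113b (0.96), Clybl (0.926) and Gm2574 (0.921) for Slc22a18, and Rpl3 (0.963), Pla2g4b (0.961) and Ncapd2 (0.96) for Phlda2. Libraries of a group share genotype and hairpin, and these values are a description with no test.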

How the data were processed

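RNA was sequenced as stranded, single-end 100 bp reads. The authors aligned reads with HISAT2 2.0.1 (RNA) or Bowtie2 2.2.1 to mm9 and deposited counts per gene from featureCounts (1.5.0-p1 per the file headers, reverse-stranded, exons summed by gene), counts per repeat integrant from bedtools 2.25 by strand, and counts of hMeDIP and input reads over regions. The deposited peak lists carry a score per peak, from MACS 1.4 for H3K4me3. The study's methods name MACS and, for H3K9me3, SICER 1.1, and do not say which was used for H3K27me3. Gene identifiers were paired with symbols through the annotation of NCBIM37.

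Genes and integrants with at least 16 reads over 16 libraries were tested in R 4.3.3 with edgeR 4.0.16, in a single quasi-likelihood fit over 6 groups with TMM scaling, Benjamini-Hochberg adjustment over all features, and calls at an adjusted p below 0.05 and 2-fold. Integrants took the library sizes of the gene table. The study used limma-voom, which is an alternative here (limma 3.58.1), as is DESeq2 1.42.0. CPM are scaled to reads on genes after TMM. Log2 changes are of edgeR's fitted means, with intervals of 1.96 SE on either side. These use a normal quantile, so they are narrower than 95% intervals of the quasi-likelihood test would be. 5hmC values are log2 of (reads + 1) in 5hmC over input, scaled to reads over all region sets, for regions with at least 10 input reads. Their 95% intervals, and those of read ratios, cover counting error only. Minus-strand repeats of the Kcnq1ot1 window were summed after the data were seen. The script was tested on simulated data. Per the study's methods, the RNA replicates came from independent experiments.

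The genes and all lists were chosen with earlier results of these data known. All members are named. From the neighbour, imprint and IGF lists, genes called in a knockdown comparison with at least 100 reads are named, at most the 4 largest per comparison. Trophoblast markers called on knockdown are named whatever their reads. For repeats the 4 integrants with the most reads are named. Across hairpins, the deviations of same-numbered libraries correlated over genes at 0.118 to 0.274 in WT and 0.0781 to 0.33 in DNMT TKO. In TET TKO the correlation was -0.00372. Differently numbered libraries were not compared, so these values do not settle whether the numbers pair libraries. The 4 hMeDIP libraries of replicate 2 have labels and file names that disagree on their role and entered no comparison. Other scalings, filters, tools, pseudocounts and thresholds, a replicate block, leaving out each library (a TET TKO arm then holds 1 library, assumed to vary like the other groups), and replicates 2 and 3 only (chosen after seeing the data) were run as alternatives. Figures used matplotlib 3.10.9.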

Additional observations from a re-analysis of the deposited data

Results flagged for a closer look

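The knockdown effect on Igf2 differed between genotypes by the interaction test of edgeR, by 1.59 on the log2 scale in DNMT TKO against WT (adjusted p = 0.0153) and by -1.31 in TET TKO against WT (adjusted p = 0.0301), and both differences share the WT libraries. The TET TKO call was lost with the replicate block (adjusted p = 0.0516), with no filter on low counts (adjusted p = 0.0579), with replicates 2 and 3 only (-0.97, under 2-fold) and without any 1 of 6 libraries, and the DNMT TKO call without shEmpty replicate 2 (adjusted p = 0.0593). Every library with shKap1 exceeded every library with shEmpty in each genotype, and the shEmpty levels differed, at 1.24 ± 0.207 CPM in DNMT TKO (SD, n = 3), 9.61 ± 3.39 in WT (n = 3) and 25.5 ± 0.737 in TET TKO (n = 2). Igf2as, antisense to Igf2, differed in TET TKO by -2.79 (adjusted p = 0.00431), rising in WT and falling in TET TKO.

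Among the neighbours, the genes that keep imprints and the IGF genes, the knockdown effect in DNMT TKO differed from that in WT for Trim28 by 1.28 (adjusted p = 0.000803), for Tet3 by -1.67 (adjusted p = 1.3e-05), for Osbpl5 by -1.44 (adjusted p = 0.0308), for Igfbp5 by -1.20 (adjusted p = 0.032) and for Igfbp7 by 1.22 (adjusted p = 0.039), all on the log2 scale in edgeR, where 7.14% of all genes were called. In TET TKO it differed for Tet3 by -1.30 (adjusted p = 0.00122) and for Igfbp5 by -1.68 (adjusted p = 0.0158), where 4.21% of all genes were called. Of 31 cell type markers tested, 5 differed in DNMT TKO (Dab2 3.01, Cdx2 -2.37, Krt18 -1.42, T -1.25 and Zfp42 -1.17) and 5 in TET TKO (Zfp352 3.11, Zscan4d 2.78, Zscan4c 2.64, Dab2 2.12 and Hand1 -3.56). Hand1 had 0 to 2 reads per WT shEmpty library, and neither DESeq2 nor limma-voom called it for that difference.

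In the 4 hMeDIP libraries with no role assigned, the H19 control region reached 9.55 RPM, scaled to reads over all region sets, in 1 library, and KvDMR 5.47, 6.36 and 5.47 in 3 libraries. These values were picked out because they lie above the input libraries of replicate 1, and since the roles are not settled they give no comparison.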

How the results depend on the processing

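Igf2, H19 and Ascl2 were called up on knockdown in all 3 genotypes under every scaling, filter and tool, and with replicates 2 and 3 only. Leaving out a library ended the call of Ascl2 in TET TKO alone. Of 418 values of single members under alternatives other than leaving out a library, 391 kept their direction and call. In WT, 3 members in place of 5 were called when only the groups compared were fitted, and 3 to 5 with a library left out. Cdkn1c lost its call there (adjusted p = 0.056, and 0.0552 with no filter on low counts, over a range of 0.00248 to 0.189), and Kcnq1 lost its call in DESeq2 (adjusted p = 0.128). With no fold threshold 5 members were called in TET TKO and 3 in TET TKO against WT. That last count was 2 with limma-voom, 2 with only the groups compared, 4 with replicates 2 and 3 only, and 1 to 2 with a library left out, while the count in TET TKO knockdown was 2 to 3. The interaction in DNMT TKO called 3 members with replicates 2 and 3 only and 0 to 1 with a library left out. In TET TKO it called 0 with no filter, 0 with replicates 2 and 3 only and 0 to 2 with a library left out.

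Whether replicate numbers pair libraries across hairpins is not settled in any genotype. The replicate block changed no call of a member in WT. With the replicate number as a block the interaction of Igf2 in TET TKO was -1.28 (adjusted p = 0.0516), so that 0 members were called, and Cdkn1c in DNMT TKO was -0.040, and no other call of a member changed.

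Directions turned for values that passed no test with all libraries. Cdkn1c in DNMT TKO was -0.15 with limma-voom, -0.65 with replicates 2 and 3 only and -0.61 to 0.27 with a library left out. With replicates 2 and 3 only, TET TKO against WT gave -0.019 for H19 and 0.038 for Kcnq1, and the interaction in TET TKO 0.16 for H19. With a library left out, TET TKO against WT ranged from -0.025 to 0.48 for H19 and -0.32 to 0.15 for Kcnq1. The interaction ranged from -0.69 to 0.045 for Ascl2 in DNMT TKO, and in TET TKO from -0.068 to 0.21 for Phlda2, -0.32 to 0.082 for Slc22a18 and -2.0 to 3.96 for Kcnq1. The minus-strand repeats of the Kcnq1ot1 window ranged from -0.012 to 0.36 in DNMT TKO, -0.21 to 1.23 in TET TKO and -1.16 to 0.29 in TET TKO against WT, where 1.23 and -1.16, both without TET TKO shEmpty replicate 2, passed the test.

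The integrant called in TET TKO was lost (0) with the integrants' own TMM. In the Kcnq1 cluster 0 in place of 4 regions kept an interval above 0 with scaling to H3K4me3 regions and 0 without the largest region, and H3K4me3 replicate 1 marked 3 in place of 5 starts above the median score. H19 5hmC ranged from 1.18 to 1.57 and KvDMR from 0.53 to 0.92. Over all genes, dropping the fold threshold raised the counts called to 9277 in WT, 7170 in DNMT TKO and 6178 in TET TKO knockdown. Depth limits Kcnq1, with 28 reads in all, and H19 in DNMT TKO, with 19 reads in shEmpty, and 5hmC rests on 1 library per condition. The causes of these changes were not tested.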
